A study of Mus musculus with 12 samples.

Results

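The genes described here are 42 genes of the type I interferon response, taken from a list of symbols. They were measured in brown adipose tissue (BAT) and white adipose tissue (WAT) of male mice aged 20 weeks, on 1-colour Affymetrix arrays with 1 array per sample. A member was taken as measured where a transcript of the array named that gene alone, which held for 39 of the 42, among 19933 genes that could be fitted. Isg15 and Oas1g stood only on transcripts that name several genes, Ifi44 had no row, and these 3 were not analysed here. The groups were BAT of Per2-/- mice (KO), BAT of per2+/+ mice (WT), WAT of KO and WAT of WT, with 3 biological replicates each and 12 arrays in all. Per2 is a core clock gene whose protein represses CLOCK and BMAL1. All mice lived under cycles of 12 hr of light and 12 hr of dark, ate chow freely and were killed at the same time. The labels do not say whether BAT and WAT of 1 number came from the same mouse. Unless stated otherwise, p-values below set a difference against the spread between arrays within groups, estimated over all 4 groups together.

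Type I interferons are secreted when a cell senses foreign or misplaced nucleic acid. They bind the receptor pair IFNAR1 and IFNAR2, the kinases JAK1 and TYK2 act on STAT2, and STAT2 works with IRF9 at interferon-stimulated response elements in the promoters of target genes. Many targets are kept at a low tonic level without infection, and several of them (Irf7, Irf9, Stat2, and the sensor Ifih1) feed back into the pathway. In fat the response is known both in adipocytes and in macrophages.

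Per2 itself had intensities of 138, 151 and 158 in BAT of KO, against 174, 158 and 163 in BAT of WT, and of 116, 108 and 172 in WAT of KO, against 116, 99.5 and 122 in WAT of WT. It was not called different in BAT (log2 difference -0.14, SE 0.14, limma adjusted p = 0.773) or in WAT (0.19, SE 0.14, limma adjusted p = 0.614). Where the array reads Per2, inside or outside the part removed, is not stated, and its level is therefore no test of the labels. Median array intensities were 67.4 to 68.4 in BAT of KO, 66 to 70.3 in BAT of WT, 81 to 88.3 in WAT of KO and 85.7 to 89 in WAT of WT. Ucp1, the defining brown-fat gene, averaged 10864 in BAT of KO and 10796 in BAT of WT, but also 3222 in WAT of KO against 6.05 in WAT of WT, so the WAT arrays of KO carried brown-fat transcripts. The summed level of 9 brown adipocyte markers was 6180 to 10600 in WAT of KO and 514 to 592 in WAT of WT. WAT of KO replicate 3 stood apart: its rank correlation over all genes was 0.9447 to 0.9558 with the other WAT arrays and 0.8855 to 0.8969 with the BAT arrays, against 0.8052 to 0.8366 between the other WAT arrays and BAT. Results in WAT are therefore also given without it where the call or size changes. Neither labels nor file headers name the strain of KO or WT mice, so a difference of strain and the loss of Per2 cannot be told apart in any genotype difference below.

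The comparison of KO with WT in BAT asked which interferon response genes differ in brown fat without Per2. Antiviral and regulatory genes fell, namely Rsad2, Rtp4, Cmpk2, Bst2 and Irf7, with log2 differences of -1.16, -1.24, -0.78, -0.88 and -0.67. None of the 39 members rose by limma at the adjusted threshold. In all, 34 of the 39 had a lower mean in KO, against 42.7% of all genes, and their median log2 difference was -0.20, against 0.03 over all genes. Called here means an adjusted p under 0.05 (Benjamini-Hochberg over all 19933 genes) in limma's fit of log2(intensity + 16). Called were 5 members lower and 0 higher, while 34 were not called; of all genes 1.72% were called in BAT, 0.813% lower and 0.908% higher. At an unadjusted p under 0.05, 17 members were lower and 1 was higher, where 4.85% of all genes were lower and 12.5% differed in either direction. All 3 KO arrays lay below all 3 WT arrays for 19 members and above them for 1, against 8.24% and 14.2% of all genes. In whole tissue, fewer cells of a type and less RNA per cell cannot be told apart.

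**Figure D1:**
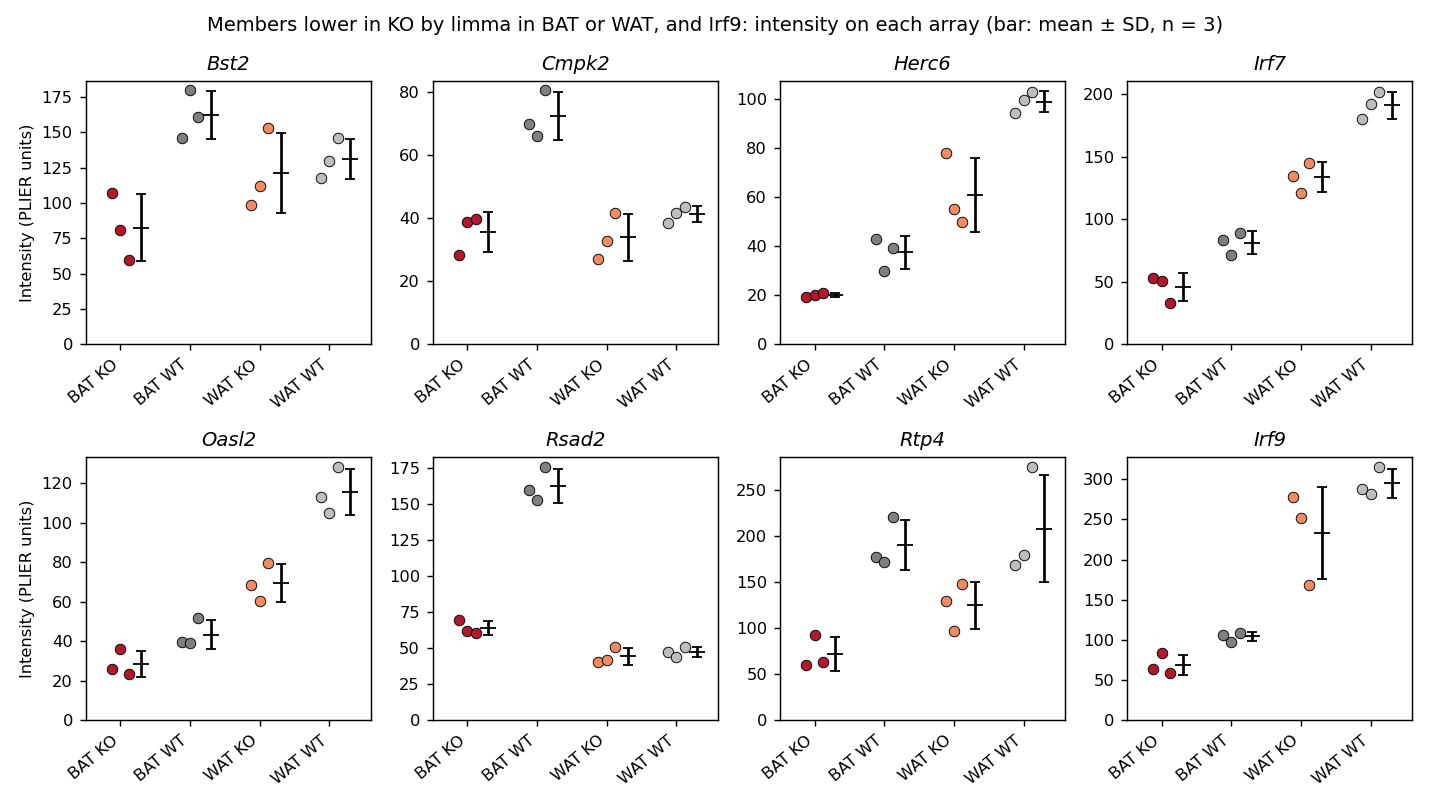
Intensity in PLIER units (y axis, linear, from 0) of the 7 members called lower in KO in BAT or WAT, and of Irf9, on each of the 12 arrays; points are arrays and the bar beside them is the mean ± SD of 3. Rsad2 at 60.5 to 69.4 in BAT of KO lies far below its 153 to 176 in BAT of WT, while its WAT arrays overlap; Irf7, Irf9, Oasl2, Herc6 and Rtp4 have KO arrays below the WT arrays in both tissues.

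Among the antiviral effectors, 4 of 6 measured members fell in BAT. Rsad2 encodes viperin, a radical SAM enzyme that makes a chain-terminating nucleotide against viral polymerases. Its intensity was 69.4, 62.2 and 60.5 in BAT of KO, against 159.6, 153 and 176 in BAT of WT (SD 4.73 and 11.4, n = 3 each). The 3 KO arrays lay close together at well under the lowest WT array, and the log2 difference was -1.16 (SE 0.10, limma adjusted p = 9.34e-05), 0.447 of the WT level on the log2(intensity + 16) scale. Cmpk2 lies next to Rsad2 on chromosome 12 and encodes a mitochondrial nucleoside monophosphate kinase. It had 28.5, 38.7 and 39.8 in BAT of KO, against 70.0, 66.1 and 80.8 in BAT of WT, again without overlap (log2 difference -0.78, SE 0.13, limma adjusted p = 0.0087).

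Rtp4 encodes a Golgi chaperone of membrane receptors that also binds RNA. It had 59.5, 92.6 and 63.4 in BAT of KO, against 177, 172 and 221 in BAT of WT (log2 difference -1.24, SE 0.20, limma adjusted p = 0.00908). The highest KO array stood well below the lowest WT array; the adjusted p was 0.0504 without KO replicate 1 and 0.0532 without KO replicate 3. Bst2 encodes tetherin, which holds budding virions at the cell surface. Its values were 107, 81.2 and 59.4 in BAT of KO, against 146, 180.2 and 161 in BAT of WT, separate but with a wide spread in KO (log2 difference -0.88, SE 0.18, limma adjusted p = 0.0346). Leaving out any 1 BAT array other than KO replicate 1, or any 1 WAT array of WT, ended that call, with an adjusted p of up to 0.137 (without KO replicate 3). The remaining effectors were not called: Eif2ak2, the RNA-activated kinase PKR, averaged 115 ± 5.74 in BAT of KO and 120.4 ± 5.65 in BAT of WT, and Samd9l, a translation inhibitor, 55.8 ± 9.37 in KO and 53.9 ± 8.73 in WT.

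Of the 3 transcription factors, Irf7 fell in BAT. IRF7 drives the transcription of interferon genes and is itself an interferon target. It had 53.3, 50.9 and 33.2 in BAT of KO, against 83.8, 71.2 and 89.3 in BAT of WT (log2 difference -0.67, SE 0.13, limma adjusted p = 0.0275). The arrays of the genotypes did not overlap, and the call was lost without BAT of KO replicate 2 or 3, BAT of WT replicate 1 or 3, or WAT of WT replicate 2, with an adjusted p of up to 0.101. Irf9, the DNA-binding part of the STAT complex, had 63.1, 83.4 and 59.3 in BAT of KO, against 106, 97.9 and 109 in BAT of WT, also without overlap. Its log2 difference of -0.52 (SE 0.16) was not called (limma adjusted p = 0.174). Stat2, its partner, had 101, 128 and 95.9 in BAT of KO, against 136, 104 and 126 in BAT of WT, and these arrays overlapped (-0.15, SE 0.16, limma adjusted p = 0.781).

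To show what the promoters of the called genes hold, the windows from 250 bases before to 50 bases after the annotated start are printed for the 6 called members in RefSeq's table (assembly GRCm38.p6), and for Ifit1, a member with the motif that was not called. Capitals mark the core of the interferon-stimulated response element, searched on both strands as GAAA, any pair of bases and GAAA (TTTC, any pair and TTTC on the opposite strand), with overlapping matches counted; each sequence runs 5′ to 3′ on the gene's own strand.
Rsad2 (chr12:26456403-26456702, minus strand): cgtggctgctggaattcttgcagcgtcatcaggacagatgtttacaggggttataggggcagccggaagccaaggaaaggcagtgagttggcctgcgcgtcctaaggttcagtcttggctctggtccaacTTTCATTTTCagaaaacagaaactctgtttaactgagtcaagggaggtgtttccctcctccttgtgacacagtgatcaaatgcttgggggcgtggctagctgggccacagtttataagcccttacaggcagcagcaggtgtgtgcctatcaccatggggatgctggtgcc
Bst2 (chr8:71537423-71537722, minus strand): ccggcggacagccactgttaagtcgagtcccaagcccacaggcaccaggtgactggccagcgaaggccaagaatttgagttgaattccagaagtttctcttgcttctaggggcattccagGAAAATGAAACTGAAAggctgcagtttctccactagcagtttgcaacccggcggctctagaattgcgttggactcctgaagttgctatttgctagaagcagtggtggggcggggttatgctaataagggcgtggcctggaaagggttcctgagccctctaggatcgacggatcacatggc
Cmpk2 (chr12:26468965-26469264, plus strand): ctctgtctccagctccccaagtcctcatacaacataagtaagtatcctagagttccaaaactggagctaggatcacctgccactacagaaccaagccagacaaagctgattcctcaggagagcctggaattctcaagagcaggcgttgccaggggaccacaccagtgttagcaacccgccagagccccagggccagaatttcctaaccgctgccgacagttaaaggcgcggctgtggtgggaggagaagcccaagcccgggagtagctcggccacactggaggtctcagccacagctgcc
Irf7 (chr7:141266375-141266674, minus strand): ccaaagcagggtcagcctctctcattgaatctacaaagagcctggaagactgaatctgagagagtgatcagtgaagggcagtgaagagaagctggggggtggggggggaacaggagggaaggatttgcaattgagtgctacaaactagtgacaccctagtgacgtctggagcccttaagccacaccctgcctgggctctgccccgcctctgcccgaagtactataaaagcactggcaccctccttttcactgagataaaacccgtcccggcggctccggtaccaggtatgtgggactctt
Oasl2 (chr5:114896684-114896983, plus strand): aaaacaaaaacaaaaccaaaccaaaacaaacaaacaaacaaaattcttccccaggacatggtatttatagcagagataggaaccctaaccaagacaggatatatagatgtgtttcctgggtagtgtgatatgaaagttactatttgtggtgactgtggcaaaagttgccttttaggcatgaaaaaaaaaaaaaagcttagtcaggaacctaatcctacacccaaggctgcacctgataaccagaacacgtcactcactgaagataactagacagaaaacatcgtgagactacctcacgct
Herc6 (chr6:57580742-57581041, plus strand): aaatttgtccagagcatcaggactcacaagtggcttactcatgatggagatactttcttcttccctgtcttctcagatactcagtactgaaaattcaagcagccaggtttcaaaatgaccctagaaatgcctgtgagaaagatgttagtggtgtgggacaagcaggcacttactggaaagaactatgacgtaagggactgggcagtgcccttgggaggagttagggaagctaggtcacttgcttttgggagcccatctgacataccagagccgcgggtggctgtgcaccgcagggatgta
Ifit1 (chr19:34640639-34640938, plus strand): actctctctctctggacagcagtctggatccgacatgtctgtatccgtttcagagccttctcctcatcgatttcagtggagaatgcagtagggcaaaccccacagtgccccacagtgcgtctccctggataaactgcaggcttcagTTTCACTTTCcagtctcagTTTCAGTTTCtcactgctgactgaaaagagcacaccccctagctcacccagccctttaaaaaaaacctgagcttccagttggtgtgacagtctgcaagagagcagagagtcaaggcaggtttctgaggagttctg
The Rsad2 window held 1 match on the opposite strand, starting 120 bases before the start. Bst2 held 2 overlapping matches on its own strand at 130 and 124 bases before the start. Cmpk2, Irf7, Oasl2 and Herc6 held none in these windows, and Ifit1 held 2 on the opposite strand, at 104 and 85 bases before the start.

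Over the 30 listed members with a window, 13 held the motif (43.3%), and over the 27 measured ones 11 did (40.7%), against 1079 of 27025 genes in the table (3.99%). KO arrays lay below WT arrays in BAT for 4 of the 11 measured members with it and 10 of the 16 without it, against 8.24% of all genes fitted. These counts describe letters in a fixed window and not binding.

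**Figure D2:**
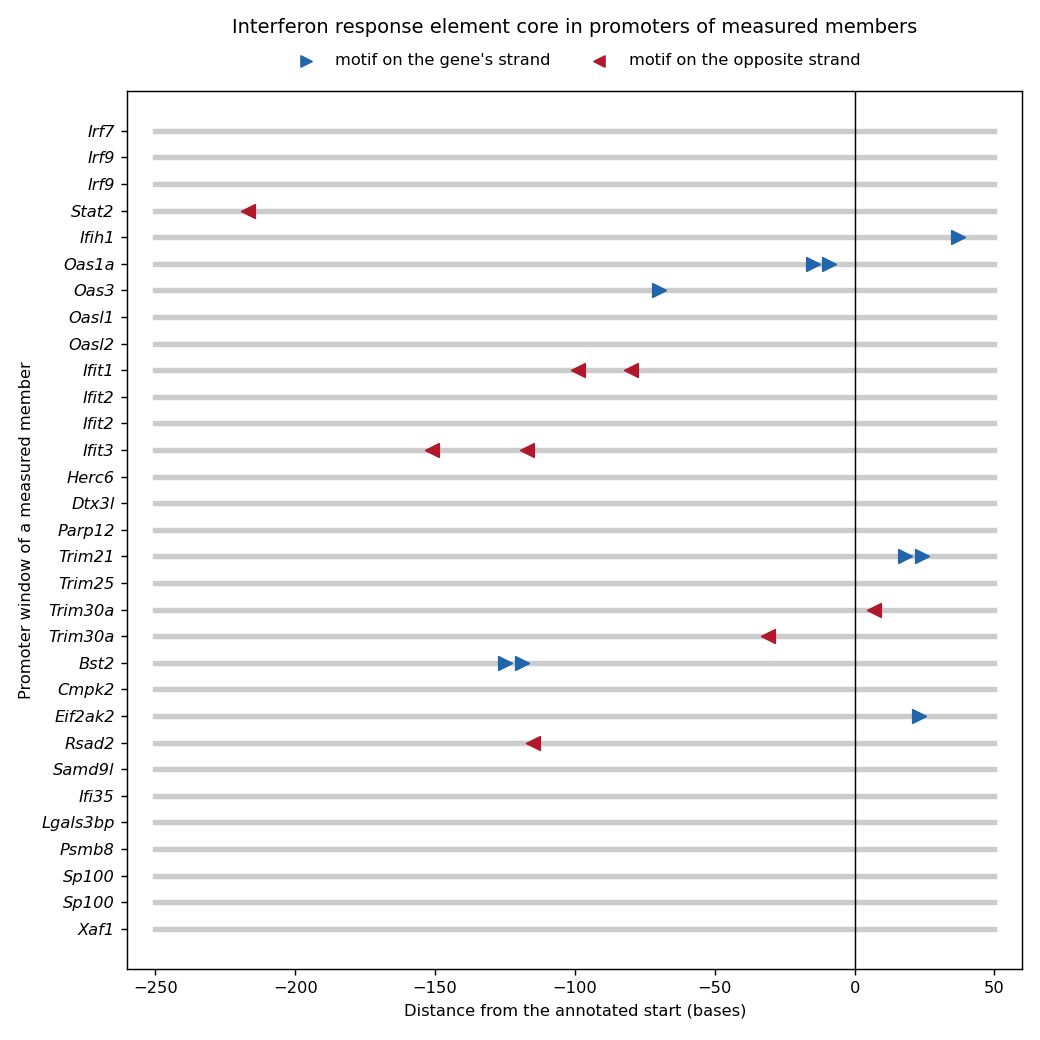
Positions of the motif (triangles, pointing by strand) in the promoter windows of the 27 measured members in RefSeq's table; the x axis is the distance from the annotated start in bases, and members with more than 1 annotated start have a line for each. Matches lie in 11 members, on both sides of the start, and those of Bst2 and Rsad2 begin 120 to 130 bases before it.

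The role groups without a called member in BAT mostly had negative differences. All 4 members of the ADP-ribosylation group were lower with no overlap of the genotypes: Parp9 and Dtx3l, which act as a complex, and Parp12 and Parp14. Their log2 differences lay between -0.35 and -0.32, each had an unadjusted p under 0.05, and none was called. Parp12, a zinc-finger ADP-ribosyltransferase, had 174, 184 and 162 in BAT of KO, against 225, 220.0 and 228 in BAT of WT (log2 difference -0.34, SE 0.12, limma adjusted p = 0.249). Parp14, Dtx3l and Parp9 are neighbours on chromosome 16, and Parp12 lies on chromosome 6.

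In the ISG15 system, Herc6, the main ISG15 ligase of mice, had 19.4, 20.2 and 21.2 in BAT of KO, against 43.2, 30.1 and 39.5 in BAT of WT (log2 difference -0.56, SE 0.13, limma adjusted p = 0.0686). These arrays did not overlap and the difference was not called. Without WAT of KO replicate 3 it was called (limma adjusted p = 0.0172), with the log2 difference unchanged at -0.56. That setting also called Irf9 and Parp12 lower in BAT, 8 members in all. Usp18, the protease that removes ISG15 and damps receptor signalling, averaged 32.2 ± 7.10 in BAT of KO and 33.4 ± 8.66 in BAT of WT. In the oligoadenylate synthetase family, whose classical members activate RNase L, 3 of 5 measured members were lower and 2 higher, none called. Oasl2 had 26.1, 35.8 and 23.4 in BAT of KO, against 39.4, 38.8 and 51.7 in BAT of WT, without overlap (-0.42, SE 0.13, limma adjusted p = 0.182), while its neighbour Oasl1 averaged 76.8 ± 6.85 in KO and 70.6 ± 8.72 in WT.

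The IFIT proteins bind foreign RNA ends, and all 3 had negative differences in BAT. Ifit2 had 20.7, 19.5 and 16.7 in BAT of KO, against 30.5, 24.5 and 36.8 in BAT of WT, without overlap (-0.41, SE 0.13, limma adjusted p = 0.182). Ifit1 (-0.46) and Ifit3 (-0.09) overlapped between the genotypes. Among the sensors, Ifih1 (MDA5, a receptor for long double-stranded RNA) had 75.4, 79.3 and 77.0 in BAT of KO, against 123, 93.5 and 95.6 in BAT of WT (-0.35, SE 0.15, limma adjusted p = 0.369). Zbp1, a sensor of Z-form nucleic acid, was the only member with all KO arrays above all WT arrays in BAT: 36.2, 40.5 and 37.2 in KO, against 21.1, 32.3 and 35.3 in WT (0.26, SE 0.11, limma adjusted p = 0.38).

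Trim30a, a ubiquitin ligase family member known in mice as a brake on innate signalling, had 71.5, 90.4 and 57.4 in BAT of KO, against 98.8, 94.2 and 110.3 in BAT of WT (-0.41, SE 0.12, limma adjusted p = 0.16). Its arrays did not overlap, whereas those of Trim14, Trim21 and Trim25 did. Ifi35, a partner of NMI, had 121, 135 and 112 in BAT of KO, against 140.3, 137 and 161 in BAT of WT (-0.23, SE 0.09, limma adjusted p = 0.341). The dynamin-like GTPases Mx1 and Mx2 were among 3 members, with Oas1a, whose mean was 16 or less in at least 1 group; Mx1 had 7.64, 8.14 and 13.3 in BAT of KO, against 13.2, 11.3 and 13.6 in BAT of WT. At this brightness the added constant of 16 holds differences near 0. Of the 39 members 10 had means under 50 in all 4 groups, and 16 were dimmer than the median gene.

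**Figure D3:**
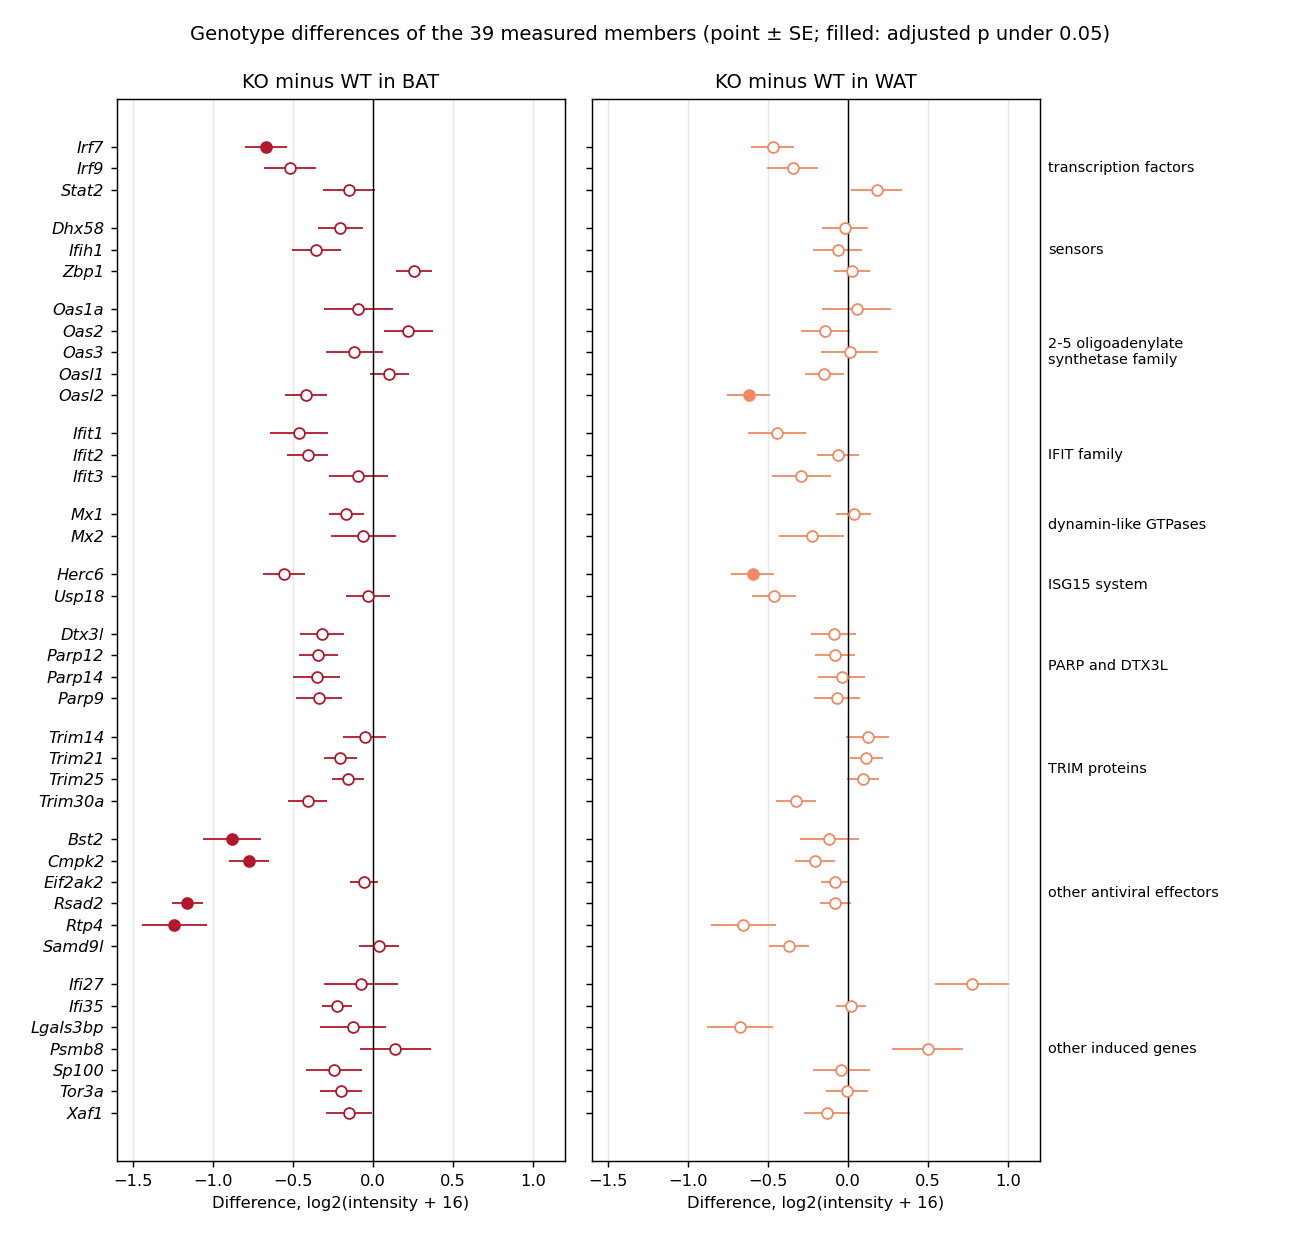
Log2 difference of KO minus WT on the log2(intensity + 16) scale (x axis, point ± SE) for each of the 39 measured members by role, in BAT (left) and WAT (right); filled points have an adjusted p under 0.05. In BAT 34 points lie left of 0 and 5 are filled; in WAT 28 lie left of 0 and 2 are filled, while Ifi27 and Psmb8 lie farthest to the right.

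The genotype comparison in WAT asked the same of white fat. Oasl2 and Herc6 fell and no member rose by limma at the adjusted threshold. Lower means in KO were found for 28 of 39 members, against 51.3% of all genes, and the median log2 difference was -0.08, against -0.01 over all genes. The 2 called members stand against 2.42% of all genes called in WAT, 1.15% lower and 1.27% higher, and 37 members were not called. At an unadjusted p under 0.05, 9 members were lower and 2 higher, against 13.9% of all genes in either direction and 7.11% lower. All KO arrays lay below all WT arrays for 10 members and above them for 2, against 10.7% and 9.88% of all genes. Without WAT of KO replicate 3, 23 members had all KO arrays below, against 18.1% of all genes, and the members' median was -0.207. The summed level of macrophage markers then separated as well, at 2710 and 2470 in WAT of KO, against 3290, 3130 and 3900 in WAT of WT (4680 on the array left out). Over all WAT arrays, 3 of the 10 markers measured were lower in KO and 7 higher, with a median log2 difference of 0.04. All 10 overlapped between the genotypes there. The part of macrophage markers in the members' difference was not tested.

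Oasl2 had 68.5, 60.4 and 79.7 in WAT of KO, against 113, 105 and 128 in WAT of WT (log2 difference -0.62, SE 0.13, limma adjusted p = 0.0321). Herc6 had 78.3, 55.1 and 49.8 in WAT of KO, against 94.5, 99.6 and 103 in WAT of WT (-0.60, SE 0.13, limma adjusted p = 0.0393). Both were separate between the genotypes, and both calls depended on single arrays: leaving out WAT of KO replicate 2 or any 1 WAT array of WT ended both, with adjusted p up to 0.154 for Oasl2 and 0.159 for Herc6. The Oasl2 call also ended without WAT of KO replicate 1 or BAT of KO replicate 1, and the Herc6 call without WAT of KO replicate 3, any 1 BAT array of KO or BAT of WT replicate 3. Without WAT of KO replicate 3, Oasl2, Ifit3 and Lgals3bp were called lower (limma adjusted p = 0.0118, 0.0478 and 0.0385) and Ifi27 higher (limma adjusted p = 0.0134).

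Irf7 had 135, 121 and 145 in WAT of KO, against 180.4, 192 and 202 in WAT of WT, with no overlap (-0.47, SE 0.13, limma adjusted p = 0.104). Irf9 had 278, 252 and 168 in WAT of KO, against 288, 281 and 315 in WAT of WT, where the lowest value was that of the array that stood apart (-0.35, SE 0.16, limma adjusted p = 0.372, and -0.14 without that array). Stat2 had 260.3, 253 and 170.4 in WAT of KO, against 178, 213 and 199 in WAT of WT, with arrays on both sides (0.18, SE 0.16, limma adjusted p = 0.69, and 0.36 without that array). Rtp4 had 129, 97.0 and 148 in WAT of KO, against 169, 179.8 and 275 in WAT of WT, without overlap (-0.66, SE 0.20, limma adjusted p = 0.144). Other members with KO arrays below the WT arrays in WAT were Ifit1 (-0.45), Usp18 (-0.46), Trim30a (-0.32), Lgals3bp (-0.68) and Samd9l (-0.37), none of them called.

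All 5 genes called in BAT had a smaller difference in WAT, Rtp4 and Irf7 as given above. These genes were picked by their call in BAT. Oasl2 and Herc6, picked by their call in WAT, likewise had smaller differences in BAT (-0.42 and -0.56). Rsad2 had 40.1, 41.6 and 51.1 in WAT of KO, against 47.5, 44.1 and 50.9 in WAT of WT, which overlapped (-0.08, SE 0.10, limma adjusted p = 0.792, and -0.16 without WAT of KO replicate 3). Bst2 had 98.8, 112 and 153 in WAT of KO, against 118, 129.9 and 146 in WAT of WT (-0.12, SE 0.18, limma adjusted p = 0.846, and -0.28 without that array). Cmpk2 had 27.2, 32.9 and 41.8 in WAT of KO, against 38.5, 41.8 and 43.5 in WAT of WT (-0.21, SE 0.13, limma adjusted p = 0.519, and -0.32 without that array). The ADP-ribosylation group, separated in BAT, lay between -0.09 and -0.04 in WAT, and between -0.25 and -0.21 without WAT of KO replicate 3.

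Ifi27 and Psmb8 went the other way in WAT. Ifi27, a small membrane protein gene, had 770.3, 808 and 1720.0 in WAT of KO, against 611, 605 and 559 in WAT of WT (0.78, SE 0.23, limma adjusted p = 0.124). Without the third KO array, which held 1720.0, the difference was 0.41 and was called (limma adjusted p = 0.0134). In BAT it had 3397, 3624 and 3541 in KO, against 3748, 3749.9 and 3644 in WT, separate but close (-0.08, SE 0.23). Ucp1 was 2554, 2665 and 4449 on the same 3 WAT arrays of KO, and the part of brown-fat transcripts in the Ifi27 difference was not tested. Psmb8, the catalytic immunoproteasome subunit, had 213, 179 and 249.6 in WAT of KO, against 140.2, 137 and 160.1 in WAT of WT (0.50, SE 0.22, limma adjusted p = 0.348).

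**Figure D4:**
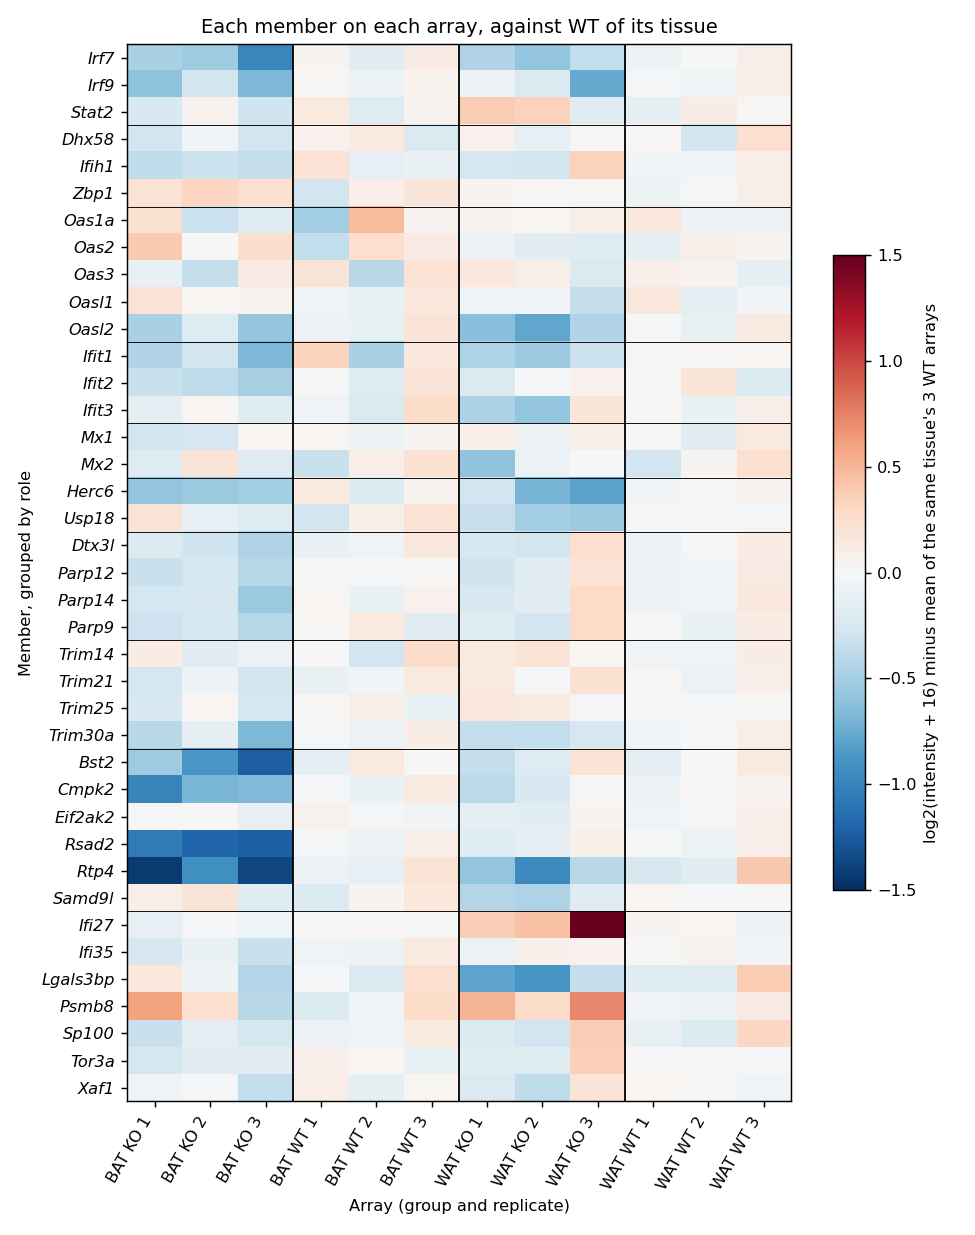
Log2(intensity + 16) of each of the 39 members (rows, by role) on each of the 12 arrays (columns), minus the mean of the 3 WT arrays of the same tissue; blue is lower and red higher. Rsad2, Rtp4, Bst2 and Cmpk2 are blue on all BAT arrays of KO, and the darkest red is Ifi27 on WAT of KO replicate 3, at 1720.0.

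Set side by side, 25 of 39 members had lower means in KO in both tissues, against 25.3% of all genes; 9 were lower in BAT and higher in WAT, 3 the opposite, and Zbp1 and Psmb8 were higher in both. The comparisons in BAT and WAT share no arrays, though the labels do not say whether they share mice. Rtp4, Irf7, Irf9, Oasl2, Trim30a and Herc6 had all KO arrays below all WT arrays in both tissues, 6 of 39 against 2.07% of all genes. Among the 25, the fall was larger in BAT for 18, and the share over all genes was not counted. The median log2 difference of all 39 members was -0.204 in BAT and -0.08 in WAT, but -0.207 in WAT without WAT of KO replicate 3.

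Whether the genotype differences differ between the tissues was tested as BAT minus WAT of the 2 genotype differences. Rsad2 passed, with a difference of differences of -1.08 (SE 0.14, limma adjusted p = 0.00379), and was the 1 member called, against 0.592% of all genes, 0.276% lower and 0.316% higher. At an unadjusted p under 0.05, 4 members (Rsad2, Bst2, Cmpk2 and Ifi27) had a negative and 2 (Usp18 and Samd9l) a positive difference of differences, against 9.46% of all genes in either direction and 3.78% negative. In all, 28 members were negative, against 43.9% of all genes. The next members by p were not called: Cmpk2 at -0.57 (SE 0.18, limma adjusted p = 0.277), Bst2 at -0.76 (SE 0.26, limma adjusted p = 0.331) and Ifi27 at -0.85 (SE 0.33, limma adjusted p = 0.421). Without WAT of KO replicate 3, Ifi27 was called too, with a smaller difference of differences of -0.48 (limma adjusted p = 0.0463), beside Rsad2 (limma adjusted p = 0.0011). For the other called genes a difference between the tissues was thus not shown: Irf7 had -0.20 (SE 0.19), Rtp4 -0.59 (SE 0.29), Oasl2 0.20 (SE 0.19) and Herc6 0.04 (SE 0.19).

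The tissue comparison asked how the members differ between BAT and WAT within a genotype. In KO 20 of 39 members were lower in BAT and 3 higher by limma, against 26.8% and 20.2% of all genes; 47% of all genes were called. In WT 12 were lower and 3 higher, against 30.3% and 20.3%; 50.6% of all genes were called. The median log2 level of an array differed between BAT and WAT by -0.272 in KO and -0.308 in WT. After centring each array on its median the counts were 10 lower and 8 higher in KO, and 8 lower and 9 higher in WT; after quantile normalization they were 10 and 3 in KO, and 8 and 8 in WT.

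Trim14, an adaptor at mitochondria in antiviral signalling, had the largest difference among the members in both genotypes. It had 103, 82.2 and 87.4 in BAT of KO, against 942, 992 and 873 in WAT of KO (-3.16, SE 0.13, limma adjusted p = 6.77e-08). In WT it had 94.5, 74.7 and 118 in BAT, against 828, 818 and 927 in WAT (-2.98, SE 0.13, limma adjusted p = 2.52e-08). Its genotype differences were not called and its arrays overlapped in both tissues (-0.05 in BAT and 0.12 in WAT).

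All 3 transcription factors were lower in BAT in both genotypes, with log2 differences of -1.29 for Irf7, -1.54 for Irf9 and -0.96 for Stat2 in KO, and of -1.09, -1.37 and -0.63 in WT. Stat2 in WT was no longer called after median centring or quantile normalization. Herc6 differed by -1.07 in KO and -1.11 in WT, and Samd9l by -1.05 in KO and -1.46 in WT. Samd9l had 58.5, 63.6 and 45.4 in BAT of KO, against 125, 123 and 151 in WAT of KO, and 44.5, 55.4 and 61.8 in BAT of WT, against 179, 171 and 176 in WAT of WT. Oasl2 (-1.15) and Lgals3bp, a secreted glycoprotein gene (-1.14), completed the largest falls in WT. Lgals3bp had 502, 437 and 604 in BAT of WT, against 1002, 997 and 1486 in WAT of WT, and in KO 569, 481 and 372 in BAT, against 654, 609.7 and 889 in WAT. In KO the Lgals3bp difference of -0.58 (SE 0.21, limma adjusted p = 0.0358) was no longer called under either scaling. Apart from Stat2 in WT and Lgals3bp in KO, the differences named in this comparison were called, in the same direction, under both scalings.

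Without scaling between arrays, 3 members were higher in BAT in each genotype, and the scalings above gave 3 to 9. Ifi27 was higher by 1.77 in KO (SE 0.23, limma adjusted p = 7.25e-05) and by 2.62 in WT (SE 0.23, limma adjusted p = 2.47e-06). Rsad2 was higher by 0.41 in KO (SE 0.10, limma adjusted p = 0.00418) and by 1.49 in WT (SE 0.10, limma adjusted p = 2.35e-07), and these comparisons share arrays with the genotype comparison in BAT. Oasl1, at 76.8 ± 6.85 in BAT of KO and 49.0 ± 7.77 in WAT of KO (SD, n = 3 each), was higher by 0.52, and Cmpk2 by 0.62 in WT. Macrophage markers, 10 measured, summed to 824 to 1180 in BAT of KO, against 2470 to 4680 in WAT of KO, and to 896 to 1140 in BAT of WT, against 3130 to 3900 in WAT of WT. Epididymis transcripts, 3 measured, were near 0 in BAT (9.31 to 101) and summed to 8760 to 29900 in WAT of both genotypes. The part of these in the tissue differences was not tested.

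**Figure D5:**
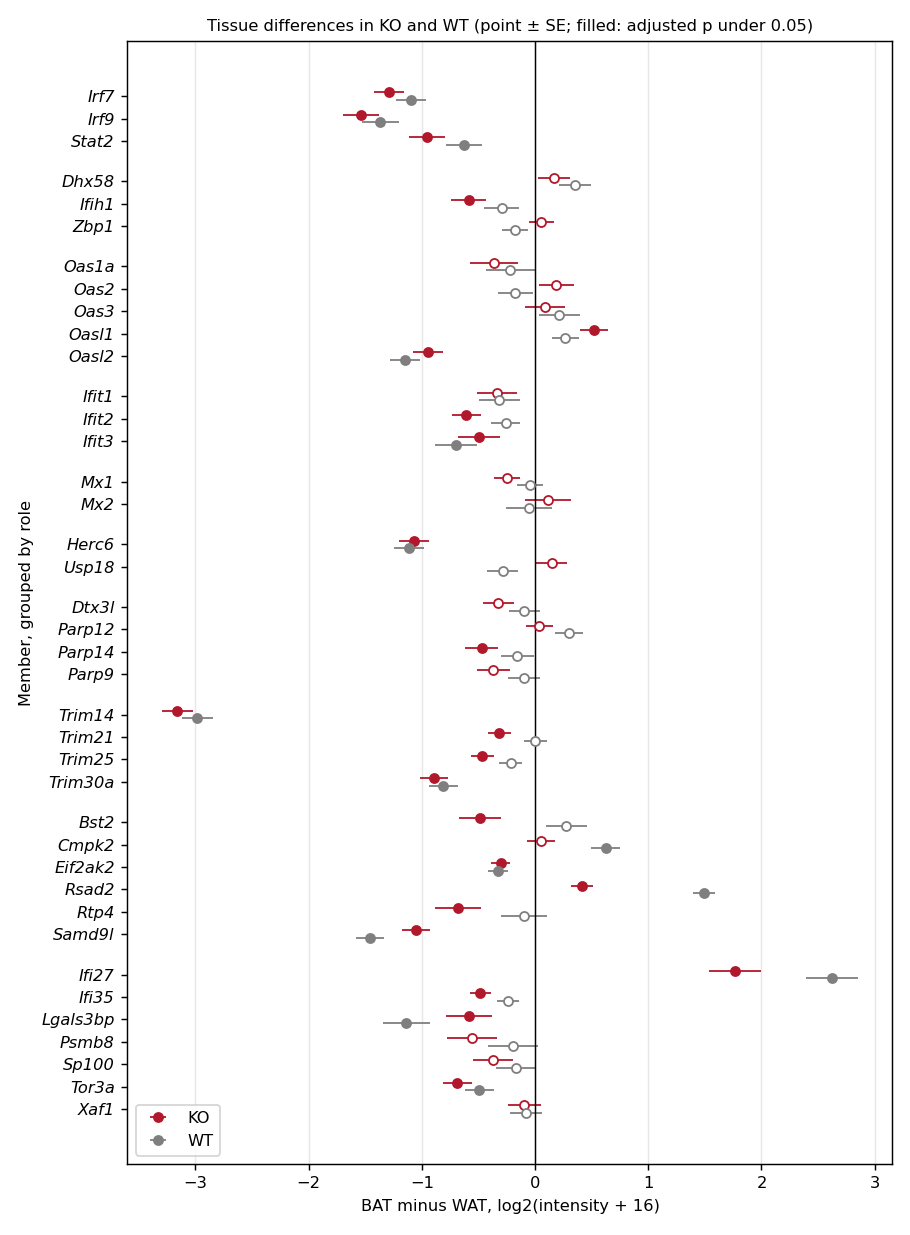
BAT minus WAT on the log2(intensity + 16) scale (x axis, point ± SE) for each of the 39 members by role, in KO (red) and WT (grey); filled points have an adjusted p under 0.05. Trim14 lies at -3.16 in KO and -2.98 in WT, Ifi27 at 1.77 and 2.62, and Rsad2 at 0.41 and 1.49.

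The rest of the pathway was counted from lists that are no members. In neither genotype comparison was any gene called by limma among 14 measured ligand genes, 6 receptor genes, 10 JAK-STAT and IRF factors, 14 nucleic acid sensors and adaptors, or 11 inhibitors. At an unadjusted p under 0.05 these lists held between 0 and 2 genes in each direction and tissue. Of all genes, 1.72% were called in BAT and 2.42% in WAT, and 12.5% and 13.9% had an unadjusted p under 0.05. In lists of this size, 0 called is near these shares. Their median log2 differences were 0.07, 0.09, -0.02, 0.03 and -0.08 in BAT, and 0.01, -0.04, 0.06, -0.02 and -0.01 in WAT. Ifnb1, which encodes interferon beta, had 30.2, 24.8 and 23.8 in BAT of KO, against 31.0, 35.4 and 45.9 in BAT of WT, separate but dim and not called (-0.33, SE 0.12, limma adjusted p = 0.255). The receptor gene Ifnar1 averaged 466 ± 39.9 in BAT of KO and 468 ± 13.4 in BAT of WT. Ifnar2 averaged 1117 ± 29.2 in BAT of KO and 1038 ± 73.2 in BAT of WT, and in WAT it had all KO arrays above all WT arrays (0.39, SE 0.12, limma adjusted p = 0.122).

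Genes that answer mainly to interferon gamma, GTPases and antigen presentation genes, were not called in BAT or WAT (0 of 14 measured each, against 1.72% and 2.42% of all genes). Their medians were -0.25 in BAT, with 10 of 14 lower, and 0.16 in WAT, with 13 of 14 higher. Gbp3 averaged 120.4 ± 40.6 in BAT of KO and 206 ± 27.8 in BAT of WT (-0.74, limma adjusted p = 0.123), and Irgm1 76.1 ± 26.4 in KO and 131 ± 18.8 in WT (-0.70, limma adjusted p = 0.202). Psmb9, Tap1 and Tap2, which lie beside Psmb8 on chromosome 17, had all KO arrays above all WT arrays in WAT, as Psmb8 had, with log2 differences of 0.48, 0.46 and 0.50.

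Among 43 measured further induced genes, 2 were called lower and 1 higher in BAT, against 0.813% and 0.908% of all genes. In WAT 3 were called lower and 0 higher, against 1.15% and 1.27% of all genes. Nmi, which binds the IFI35 protein, had 60.9, 55.6 and 47.4 in BAT of KO, against 96.6, 129 and 119 in BAT of WT (-0.89, SE 0.14, limma adjusted p = 0.00669). Ifi203, of the HIN-200 family of DNA-binding proteins, lies on chromosome 1, as Per2 does, and had 186, 206 and 183 in BAT of KO, against 98.4, 119 and 99.7 in BAT of WT (0.77, SE 0.17, limma adjusted p = 0.0451). Slfn8, of the Schlafen family, fell in WAT (log2 difference -0.55, SE 0.12, limma adjusted p = 0.0273).

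The 2 largest falls of that list lie in the Trim cluster on chromosome 7 that also holds Trim30a. Trim12a had 13.6, 8.23 and 6.67 in BAT of KO, against 67.5, 93.1 and 77.3 in BAT of WT, and 8.73, 4.74 and 2.82 in WAT of KO, against 152, 135 and 152 in WAT of WT. Its log2 differences were -1.90 in BAT (SE 0.14, limma adjusted p = 5.18e-05) and -2.93 in WAT (SE 0.14, limma adjusted p = 3.43e-07). Trim30d had 6.18, 4.24 and 10.7 in WAT of KO, against 98.6, 77.6 and 90.8 in WAT of WT (-2.19, SE 0.18, limma adjusted p = 5.34e-05). In BAT it was low in both genotypes, at 12.2, 12.1 and 12.9 in KO, against 16.7, 35.2 and 13.0 in WT, and not called. Trim12a and Trim30d had at most 13.6 on any KO array, whereas Trim30a had 57.4 to 90.4 in BAT of KO and 143 to 156 in WAT of KO. Whether probes of this cluster, or of the OAS and IFIT families, read near-identical copies was not tested, and for Trim30a, in the same cluster, a difference of strain and the loss of Per2 cannot be told apart either.

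Summed markers of immune cells overlapped between the genotypes in BAT. Macrophage markers summed to 824 to 1180 in BAT of KO and 896 to 1140 in BAT of WT, with 0 of 10 called. Those of plasmacytoid dendritic cells, which make much interferon, summed to 352 to 577 in KO and 411 to 911 in WT, with 0 of 6 called. Of all genes 1.72% were called in BAT. Siglech, the defining marker of plasmacytoid dendritic cells, averaged 15.2 in BAT of KO and 14.2 in BAT of WT. The sum of their list was lowest on the BAT array with the lowest muscle sum (352 and 3590, KO replicate 1). It was highest on the BAT array with the highest muscle sum (911 and 25900, WT replicate 3). Whether that sum follows the number of these cells was not tested. Among marker lists in BAT, skeletal muscle had the largest median difference (-1.05): all 7 were lower in KO, 0 called, with sums of 3590 to 11800 in KO and 6410 to 25900 in WT. White adipocyte markers summed to 704 to 1160 in BAT of KO and 603 to 648 in BAT of WT, with 1 of 7 called higher. In WAT, 6 of 9 brown adipocyte markers and 1 of 7 muscle markers were called higher in KO, and of 6 natural killer cell markers Klrb1c alone was called, at 17.2, 1.48 and 10.2 in KO, against 579, 549.9 and 445 in WT. The 5 others summed to 81.9 to 92.8 in WAT of KO and 94.9 to 102 in WAT of WT. The part of muscle, brown-fat, white-fat or natural killer cell transcripts in the members' differences was not tested.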

How the data were processed

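RNA of 12 samples (BAT and WAT of KO and WT male mice, 3 arrays per group) was hybridised to 1-colour arrays. The intensity values were summarised per transcript by the authors with PLIER, per the submitters' processing notes; for its version, the scaling between arrays and the array design's genome build, the sources used here name nothing. The deposited table also holds unadjusted p-values on linear and natural log values and a signed fold score of group means, from Cyber-T 8.01 and hdarray 3.71 under R 2.2.1, per the file headers. Arrays give no read depth; their number limits the precision, with a median SE of 0.127 (log2) for a group difference.

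Of 35557 transcripts, the authors tested 28925. Genes were named from the platform annotation: 21789 transcripts name 1 gene, 1621 several and 12147 none, and 21698 were matched by gene ID. The brightest transcript naming 1 gene alone was kept, giving 19933 genes. limma 3.58.1 in R 4.3.3 fitted 4 group means to log2(intensity + 16) on all 12 arrays, with Benjamini-Hochberg adjustment over all genes, and 5 comparisons were drawn from that fit; the procedure was tested on simulated data. A fold on this scale understates changes of dim genes. Control spots and probe detection are not marked in the table. Same-numbered deviations from the group means correlated at -0.119 to 0.0918, and different-numbered ones at -0.126 to 0.172. These ranges overlap, so whether replicate numbers pair samples cannot be told from them. Tables were summarised with Python 3.11.15, pandas 2.3.3 and numpy 2.4.6, and drawn with matplotlib 3.10.9. Promoter windows are RefSeq's for GRCm38.p6.

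The members and lists were chosen with earlier results of these data known. Named were members called in a genotype comparison, the member of smallest p in BAT in each of 10 role groups, Irf7, Irf9 and Stat2, and called members of the tissue comparisons (up to 6 per direction); other genes were named after their values were seen. Alternatives were other added constants, quantile and median scaling, array weights, a replicate block, only the 6 arrays compared, brighter genes only, the authors' p-values and each array left out. Leaving out arrays for the counts of lower and of separated members was added after seeing the data.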

Additional observations from a re-analysis of the deposited data

Results flagged for a closer look

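Rsad2 differed between the tissues in its genotype difference, by -1.08 on the log2 scale (limma interaction test, SE 0.14, adjusted p = 0.00379): -1.16 in BAT and -0.08 in WAT. Over the 23 alternatives in which it was tested, the adjusted p lay between 0.000378 and 0.0186.

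Ifi27 lay below WT on all KO arrays in BAT and above WT on all KO arrays in WAT, which gave a difference of differences of -0.85 (SE 0.33). The limma interaction test did not pass (adjusted p = 0.421), and the WAT side had 770.3, 808 and 1720.0 in KO, against 611, 605 and 559 in WT. Without WAT of KO replicate 3, the array at 1720.0, the difference of differences was -0.48 and passed (limma adjusted p = 0.0463). Groups of 3 arrays were not searched for single outlying values.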

How the results depend on the processing

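In BAT, 5 members were called; the fit with the replicate number as a block gave 3, brighter genes only 3 (23 members tested, without Cmpk2 and Rsad2), the authors' deposited p-values on log values 8, and leaving out 1 array 2 to 8. In WAT, 2 were called; an added constant of 1 gave 0, quantile normalization 1, only the 6 arrays compared 0, array weights 10 (9 lower and 1 higher), the replicate block 0, brighter genes only 0 (Oasl2 and Herc6 are not among them), the authors' deposited p-values 1 on log and 4 on linear values, the rule of 1.5-fold with an unadjusted p under 0.05 gave 5, and leaving out 1 array 0 to 4. For BAT minus WAT in KO (23 called), quantile normalization gave 13, that fold rule 12, and leaving out 1 array 17 to 24; in WT (15 called) leaving out 1 array gave 15 to 19. For the difference of differences (1 called), brighter genes only gave 0 (Rsad2 is not among them), that fold rule 3, and leaving out 1 array 1 to 2, where Ifi27 joined Rsad2 without WAT of KO replicate 3. Leaving out an array of the other tissue left a genotype difference itself unchanged, as for Herc6 in BAT at -0.56 without WAT of KO replicate 3. Only the shared estimate of spread and the adjustment then moved the call. Apart from such moves and from genes not tested among the brighter ones, the causes of these moves were not tested. Leaving out 1 array, chosen after seeing the data, gave 30 to 35 members lower in BAT and 22 to 29 in WAT, and 19 to 23 and 10 to 23 members with all KO arrays below all WT arrays; the 23 in WAT came without WAT of KO replicate 3. Rsad2 and Cmpk2 kept their call in BAT under all 25 alternatives run for each (adjusted p up to 0.00105 and 0.0409), Rtp4 under 24 of 26, Irf7 under 19 of 26 and Bst2 under 16 of 26; in WAT Oasl2 kept it under 15 of 25 and Herc6 under 12 of 25. Leaving out 1 array changed the sign of the difference for 9 of the 39 members in BAT and 13 in WAT, all differences that were not called; among the members followed singly in WAT these were Bst2 (-0.2767 to 0.0029), Ifi35 (-0.0073 to 0.0757), Ifih1 (-0.2646 to 0.0381), Ifit2 (-0.1676 to 0.0317), Mx1 (-0.0465 to 0.1095) and Parp12 (-0.2284 to 0.0255).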

Other observations

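Several members lie next to each other in GRCm38.p6. Rsad2 and Cmpk2 are neighbours on chromosome 12, Oasl1 and Oasl2 on chromosome 5, and Ifit1, Ifit2 and Ifit3 on chromosome 19. In BAT, Rsad2 and Cmpk2 both fell, with log2 differences of -1.16 and -0.78, whereas Oasl2 and Oasl1 had -0.42 and 0.10, neither called. Sp100 and Tor3a lie on chromosome 1, as Per2 does. They were among the 19 of 39 members with all KO arrays below all WT arrays in BAT (8.24% of all genes), and were not called. Nmi had all KO arrays below all WT arrays in WAT also, at 188, 166 and 128 in KO, against 227, 220.1 and 209 in WT (-0.42, SE 0.14, limma adjusted p = 0.166). Ifi203 was higher on all KO arrays in WAT, at 139, 132 and 234, against 107, 95.9 and 94.9 in WT (0.63, SE 0.17, limma adjusted p = 0.085). BAT of KO replicate 3 had the lowest value of its group for 24 of the 39 members. The other groups were uneven as well: BAT of WT replicate 3 was highest for 25, WAT of KO replicate 3 for 26 and WAT of WT replicate 3 for 27. Counts of members are therefore not counts of independent observations. The same shares over all genes were not counted.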
